A study of Mus musculus with 9 samples.

Results

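The Snail, Scratch and ZEB genes encode zinc finger repressors of transcription. The genes described here are Scrt1 (Scratch1), Snai1, Snai2, Snai3, Zeb1 and Zeb2, and they were found by matching the Ensembl identifiers of the count table to these symbols in GENCODE M21. All 6 were present among the 48526 genes of the table, and 5 of them were among the 18858 genes that passed the filter on low counts. Snai3 did not pass. The choice was made by name and not by a measured value, although earlier results of these data were known.

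RNA-seq counts were available for neural stem cells (NSCs) isolated from the subependymal zone (SEZ) of adult C57BL/6 mice (C57BL/6J in the study's methods) and grown as neurospheres. Undifferentiated cells (0 h) were compared with cells collected 1 h and 6 h after differentiation had been induced on an adhesive substrate without EGF, with FGF kept in the medium. Each time point had 3 replicates, numbered 1 to 3, which gives 9 libraries. The labels do not say whether replicates came from separate animals or what libraries with the same number shared, so the p-values below measure the spread between these libraries. No transgene or deletion is given for any group. In these bulk cultures, fewer cells of a type and less RNA per cell cannot be told apart.

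Snail and Scratch proteins bind the E-box CACCTG through C-terminal zinc fingers and carry the SNAG domain at their N terminus, through which they recruit corepressors such as the LSD1-CoREST complex and histone deacetylases. ZEB proteins bind the same kind of E-box through a zinc finger cluster near each end and recruit CtBP. Snail and ZEB factors are best known as inducers of the epithelial-mesenchymal transition (EMT), in which they repress E-cadherin and other epithelial genes. In the nervous system Snail factors act in the neural crest, Scratch factors are found mainly in neurons and their precursors, and ZEB factors are expressed in neural progenitors.

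The first coding bases show which of these genes belong together, because the SNAG domain lies there. Below are the first 30 coding bases from GENCODE M21 on GRCm38, read 5′ to 3′, with capitals at the 19 positions where Snai1, Snai2, Snai3, Scrt1 and the paralogue Scrt2 have the same base. Capitals in Zeb2 mark the bases that it has in common with those 19.
Snai1: ATGCCgcGcTCCTTCCTGGTcAggAagccg
Snai2: ATGCCgcGcTCCTTCCTGGTcAagAaacat
Snai3: ATGCCgcGcTCCTTCCTGGTgAaaAcgcac
Scrt1: ATGCCcaGgTCCTTCCTGGTtAagAaggtc
Scrt2: ATGCCgcGtTCCTTCCTGGTgAagAagatc
Zeb2: ATGaCtcatTttgaagatGTaAttcttgtc
These windows lie in exons at chr2:167538290-167538319 (Snai1, plus strand), chr16:14705974-14706003 (Snai2, plus strand), chr8:122460585-122460614 (Snai3, minus strand), chr15:76521676-76521705 (Scrt1, minus strand), chr2:152082050-152082079 (Scrt2, plus strand) and chr2:45110381-45110410 (Zeb2, minus strand). Of the 30 bases, 26 in Snai2, 24 in Snai3, 22 in Scrt1 and 24 in Scrt2 were identical to Snai1, against 9 in Zeb2. Zeb2 matched 8 of the 19 bases that the other 5 genes have in common.

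The genes differ widely in size. Zeb1 lies on chromosome 18 from 5591860 to 5775467 on the plus strand, with 12 annotated transcripts, and Zeb2 on chromosome 2 from 44983632 to 45117395 on the minus strand, with 29. Scrt1, on chromosome 15 from 76516203 to 76522499 on the minus strand, has 2 exons in its longest transcript. Snai1 (chromosome 2, 167538195 to 167542814, plus strand), Snai2 (chromosome 16, 14705852 to 14709385, plus strand) and Snai3 (chromosome 8, 122454208 to 122460733, minus strand) each have 3 exons and 1 annotated transcript. The exons of a gene cover between 1621 bases for Snai1 and 19942 bases for Zeb2, so the levels of different genes are compared as RPKM, a level scaled to both exon length and library size.

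The libraries held between 65871454 and 105592597 counts, and the TMM factors used to scale them lay between 0.9718 and 1.017. Neural stem cell markers had a summed level of 4870 to 6680 CPM (counts scaled to the same library total) over 10 markers. Most of it came from Nes, Fabp7, Slc1a3 and Egfr. In the undifferentiated cells Nes was at 1990 ± 395 and Sox2 at 105 ± 2.3 CPM (SD, n = 3). Other markers of the list were low there, with Gfap at 1.31 ± 0.292 and Hes5 at 4.12 ± 2.25 CPM. Microglial markers summed to between 12.1 and 18.1 CPM, and 4 of the 12, namely Itgam, C1qa, C1qb and Trem2, were at 0 in every library. Libraries with the same replicate number deviated together, so each test was also run with the replicate number as a block, a term that removes the level of each replicate.

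Zeb1 was the main transcript of the group, Zeb2 stood at a moderate level, and the Snail and Scratch genes were at the bottom of the range of expressed genes. Averaged over the 9 libraries, Zeb1 had 75.8 RPKM and ranked 539th of 18785 tested genes with a length, above 97.1% of them. With the longest transcript as length in place of all exons the value was 134 RPKM, above 98.1% of the genes. Zeb2 had 5.11 RPKM by all exons, above 58.8% of the genes, and 11.2 RPKM by the longest transcript, against medians of 3.19 and 4.12 RPKM over all tested genes.

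Scrt1 had 0.121 RPKM on average and was above 9.7% of the tested genes. Snai2 had 0.0829 RPKM, above 6.5%, and Snai1 had 0.0578 RPKM, above 4.0%. These ranges overlapped, from 0.0357 to 0.208 RPKM per library for Scrt1, from 0.0275 to 0.218 for Snai2 and from 0.0167 to 0.095 for Snai1, so the order of these neighbours did not exceed their spread. Zeb1 and Zeb2 were separated from each other and from the Snail and Scratch genes in every library.

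**Figure D1:**
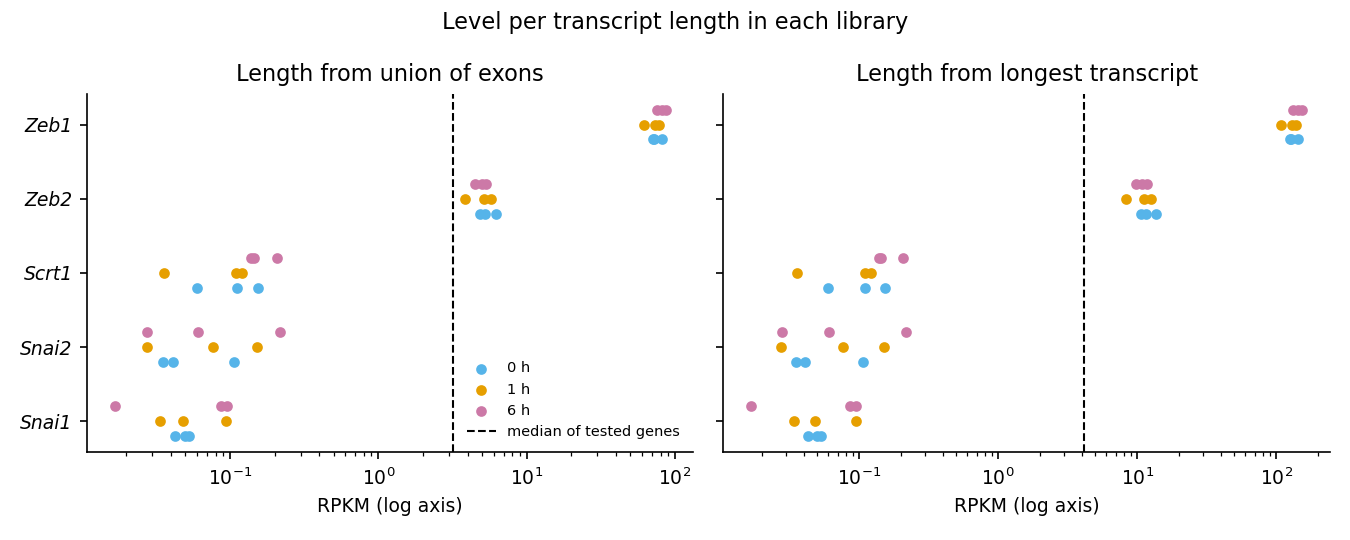
Level of each tested gene in RPKM on a log axis, with gene length taken from all exons (left) or from the longest transcript (right); points are single libraries coloured by time point and the dashed line is the median of the tested genes. Zeb1 lies between 61.8 and 87.0 RPKM and Zeb2 between 3.84 and 6.20 RPKM by all exons, whereas Scrt1, Snai2 and Snai1 overlap at 0.218 RPKM or less.

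Snai3, the least studied Snail gene, was near the limit of detection. The 0 h libraries each had 1 count, replicate 2 at 1 h also had 1 count, and the other 5 libraries had 0 counts. A count of 0 allows up to 3 counts, or between 0.0284 and 0.0455 CPM at these depths, so whether Snai3 differed between time points was not detectable. Intervals and limits of this kind cover counting error only, since reads without molecular identifiers are not independent molecules. Scrt2, the paralogue of Scrt1 and not one of the 6 genes, had between 0 and 4 counts per library and was too low to be tested.

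The first comparison asks whether these genes changed within the first hour of differentiation. None of the 5 tested genes was called at 1 h against 0 h by the quasi-likelihood test of edgeR with Benjamini-Hochberg adjustment at 0.05, where 0.0424% of all tested genes were called. At an unadjusted p under 0.05 the count was also 0 of 5, and DESeq2 called 0 (0.669% of all genes), with no adjusted p for 3 of the 5. The block did not change this, with 0 of 5 called against 3.51% of all tested genes.

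The other comparisons ask what had changed by 6 h. Without the block 0 of 5 genes were called at 6 h against 0 h (2.42% of all tested genes) and 0 of 5 at 6 h against 1 h (2.14%), the counts at an unadjusted p under 0.05 were both 0, and DESeq2 called 0 in both (10% and 10.7% of all genes). With the block, edgeR called Scrt1 and Zeb1 higher at 6 h than at 1 h and none of the 5 at 6 h against 0 h, where 34.9% of all tested genes were called. The former is 2 of 5 higher, in a comparison that called 18.0% of all tested genes higher and 35.6% in either direction. With so many genes called, 2 of 5 is no result about the family, and each gene is described on its own below.

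Scrt1, a neural repressor of the Snail superfamily, was low but rose between 1 h and 6 h in the fit with the block. At 0 h its libraries had 19, 50 and 34 counts in replicates 1, 2 and 3, or 0.263, 0.676 and 0.487 CPM. At 1 h they had 10, 44 and 38 counts, or 0.156, 0.482 and 0.528 CPM. At 6 h they had 45, 83 and 68 counts, or 0.611, 0.913 and 0.635 CPM. Every 6 h library was above every 1 h library, a separation that 12.1% of all tested genes also showed in this direction, whereas the 6 h and 0 h libraries overlapped because replicate 2 at 0 h was as high as 0.676 CPM.

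The level of Scrt1 went from 0.475 ± 0.207 CPM at 0 h to 0.389 ± 0.203 CPM after 1 h and 0.72 ± 0.168 CPM after 6 h (mean ± SD of 3 libraries). Within replicates the ratio of 6 h to 1 h was 3.91, 1.89 and 1.20 in replicates 1, 2 and 3, so it was above 1 in 3 of 3 replicates, but unequal. The log2 fold change at 6 h against 1 h was 0.91 (SE 0.28, adjusted p = 0.0213, edgeR with the block), which is 1.88-fold. Without the block it was 0.88 (SE 0.48, adjusted p = 0.396).

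The call for Scrt1 depended on replicates 1 and 2. Without the 1 h or the 6 h library of replicate 1 the log2 fold change fell to 0.70 (edgeR adjusted p = 0.0907) or 0.66 (edgeR adjusted p = 0.0905). Leaving out the 1 h or the 6 h library of replicate 2 gave 0.86 (edgeR adjusted p = 0.0953) or 0.98 (edgeR adjusted p = 0.0582). The other 5 libraries could each be left out and the call stayed, with an edgeR adjusted p of 0.00825 to 0.0333.

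Against 0 h, Scrt1 at 6 h was higher in 3 of 3 replicates, a pattern seen in 31.5% of all tested genes. The ratios were 2.33, 1.35 and 1.30, and the log2 fold change with the block was 0.62 (SE 0.27, edgeR adjusted p = 0.0922), which missed the threshold. It passed only without the 6 h library of replicate 3 (0.87, edgeR adjusted p = 0.0451). The change at 1 h against 0 h was -0.29 (SE 0.30, edgeR adjusted p = 0.659 with the block), with ratios of 0.595, 0.713 and 1.09 that did not share a direction.

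Some neuronal markers rose over the same interval as Scrt1, and others did not. Of the 10 markers of neuroblasts and neurons, 4 were called higher and 0 lower at 6 h against 1 h with the block. In this comparison 18.0% of all tested genes were called higher. Without the block 0 of the 10 were called. Among those called were Syt1, a synaptic vesicle protein, with a log2 fold change of 1.36, and Tubb3, a neuronal tubulin, with 0.98. The log2 fold change with the block was positive for 6 markers and negative for 4, namely Stmn2, Gad1, Elavl4 and Dcx. The summed level of the 10 markers was between 881 and 1570 CPM at 1 h and between 1040 and 1640 CPM at 6 h. It was dominated by Map2 at 1090 to 1130 CPM. Dcx, which marks neuroblasts, stayed at 0.811 to 1.08 CPM. All 6 markers of oligodendrocyte progenitors were tested at 6 h against 1 h. With the block 5 were called higher, beside the same 18.0% of all tested genes, and without the block 1 was. Sox10, 1 of the 5, was low, at 0.0845 CPM at 1 h and 0.21 CPM at 6 h. The sum of the 6 markers was between 1830 and 2200 CPM at 1 h and between 2160 and 2510 CPM at 6 h. The part of these cells in the level of Scrt1 was not tested.

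Zeb1, which is abundant in neural progenitors and restrains their differentiation, was the other gene with a call. Its level was 742, 838 and 728 CPM at 0 h in replicates 1, 2 and 3. At 1 h it was 753, 804 and 634 CPM. At 6 h it was 837, 893 and 772 CPM. Replicate 2 was the highest and replicate 3 the lowest at each time point, and the groups overlapped in each comparison.

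Zeb1 rose by a small amount between 1 h and 6 h once the level of each replicate had been removed. The means were 769 ± 59.8, 730 ± 87.0 and 834 ± 60.5 CPM in the undifferentiated, 1 h and 6 h cells (SD, n = 3). At 6 h against 1 h Zeb1 was higher by 11.2%, 11.0% and 21.7% in replicates 1, 2 and 3, and 29.4% of all tested genes were higher in 3 of 3 replicates. With the block its log2 fold change was 0.20 (SE 0.05, edgeR adjusted p = 0.0109), against 0.19 (SE 0.11, edgeR adjusted p = 0.418) without it. This call held when any 1 of the 9 libraries was left out, with a log2 fold change of 0.14 to 0.23 and an edgeR adjusted p of 0.0122 to 0.0439.

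Against 0 h, Zeb1 at 6 h was higher by 12.8%, 6.57% and 6.09%. This log2 fold change of 0.12 (SE 0.05, edgeR adjusted p = 0.103 with the block) missed the threshold. It passed when each library's dependence on GC content and on transcript length was removed as well (0.15, SE 0.04, edgeR adjusted p = 0.00862) and without the 1 h library of replicate 3 (0.12, edgeR adjusted p = 0.0151). At 1 h against 0 h the value was -0.08 (SE 0.05, edgeR adjusted p = 0.453 with the block), and the replicates differed by 1.37%, -4.03% and -12.8%.

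Zeb2, the other ZEB gene, followed another course. Its level was 105, 124 and 97.2 CPM at 0 h in replicates 1, 2 and 3. At 1 h it was 103, 115 and 76.6 CPM. At 6 h it was 99.1, 107 and 89.7 CPM. As for Zeb1, replicate 2 was the highest and replicate 3 the lowest at each time, and the groups overlapped in each comparison.

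Zeb2 was below its 0 h level in 3 of 3 replicates at both later times, without passing the test. The means were 109 ± 13.6, 98.3 ± 19.7 and 98.6 ± 8.64 CPM in the undifferentiated, 1 h and 6 h cells (SD, n = 3). Among all tested genes, 22.4% were lower in 3 of 3 replicates at 1 h and 31.7% at 6 h. The log2 fold change at 1 h was -0.15 (SE 0.06, edgeR adjusted p = 0.228 with the block) and that at 6 h against 0 h was -0.14 (SE 0.06, edgeR adjusted p = 0.124 with the block). After removal of the dependence on GC content and length the 6 h value was -0.05 (SE 0.04, edgeR adjusted p = 0.337). The 6 h call was made without the 1 h library of replicate 3 (-0.13, edgeR adjusted p = 0.0118). At 6 h against 1 h the value was 0.02 (SE 0.06, edgeR adjusted p = 0.856 with the block), with a 95% interval of -0.11 to 0.15.

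**Figure D2:**
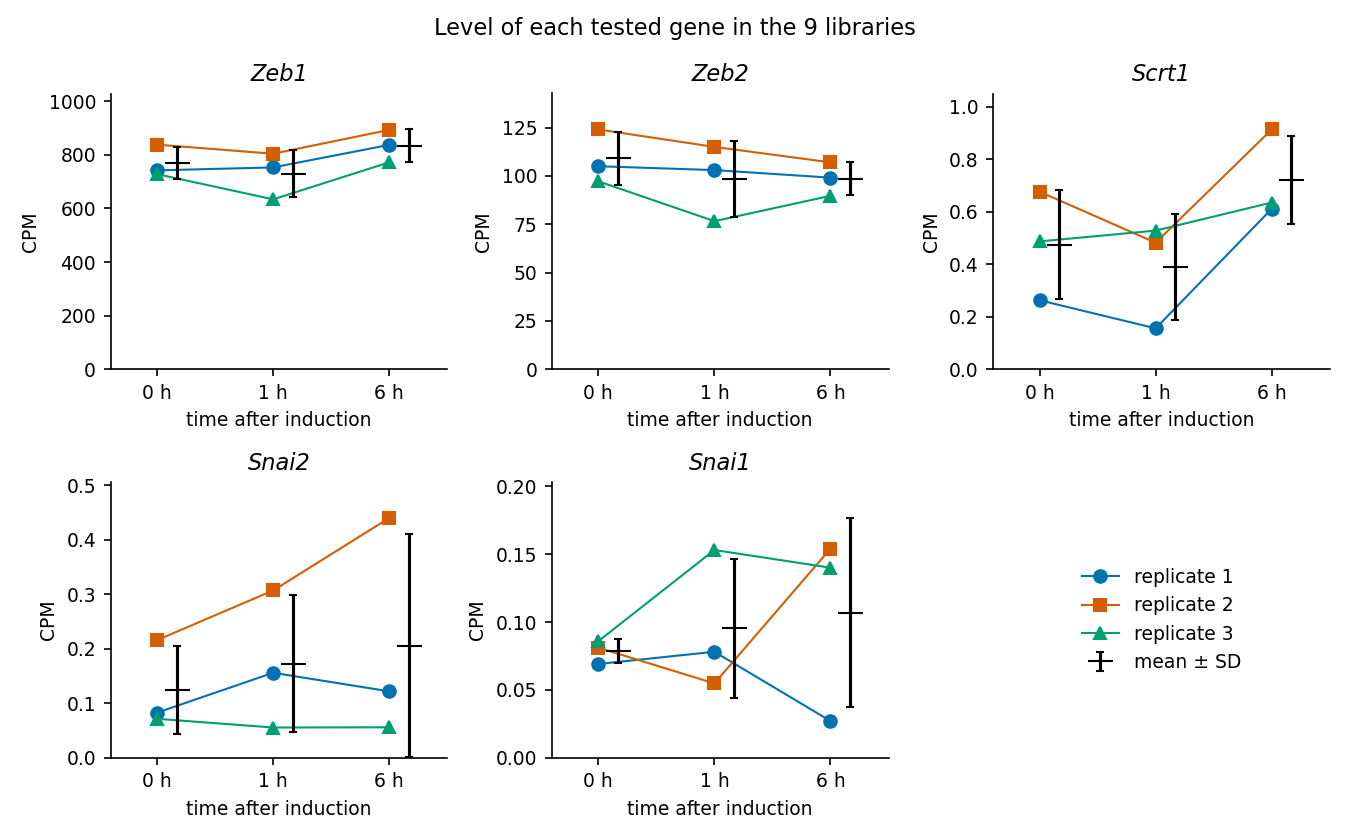
Level of the 5 tested genes in CPM by time of differentiation; each point is 1 library, lines join libraries with the same replicate number and black bars are the mean ± SD of 3 libraries. Zeb1 and Zeb2 keep the order of the replicates at each time point, every 6 h library of Scrt1 is above every 1 h library, and Snai2 is highest in replicate 2 throughout.

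Since Zeb1 ended higher and Zeb2 lower in each replicate, the balance of both transcripts is given for each library. This ratio compares libraries with each other and, as a ratio of counts, does not give the relative level of the 2 genes, which differ in length. It was looked at after the values had been seen and is a description without a test. The number of Zeb1 counts per Zeb2 count was 7.08, 6.77 and 7.48 at 0 h in replicates 1, 2 and 3. At 1 h it was 7.28, 6.99 and 8.28, and at 6 h it was 8.45, 8.35 and 8.61. All 3 libraries at 6 h were above the 6 earlier libraries, although replicate 3 had already reached 8.28 at 1 h.

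The mean of this ratio was 7.11 ± 0.356 at 0 h, 7.52 ± 0.677 at 1 h and 8.47 ± 0.131 at 6 h (SD, n = 3). Per base of the longest transcript, Zeb1 was 11.2 ± 0.557 times as abundant as Zeb2 at 0 h and 13.3 ± 0.2 times at 6 h. A ratio within a library does not depend on the scaling of the libraries. It does depend on how a library favours GC content and length, and Zeb1 and Zeb2 differ in both (46.1% and 40.6% GC, and longest transcripts of 5801 and 9124 bases).

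**Figure D3:**
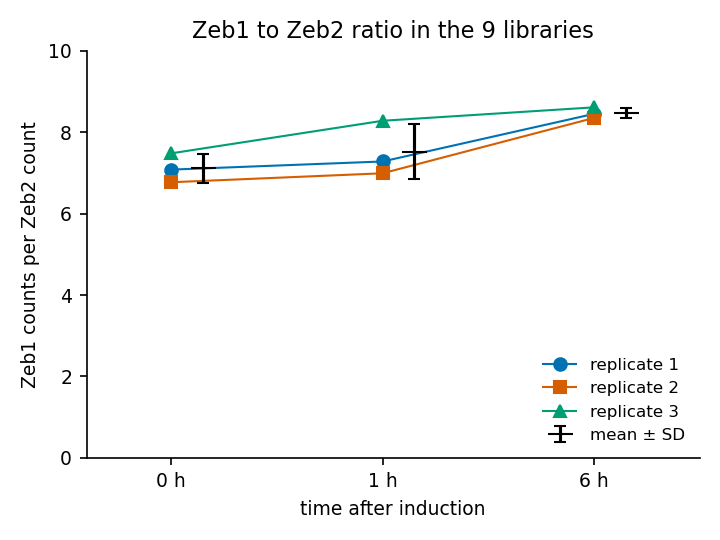
Zeb1 counts per Zeb2 count in each of the 9 libraries; lines join libraries with the same replicate number and black bars are the mean ± SD of 3 libraries. The 6 h libraries lie between 8.35 and 8.61 and the earlier ones between 6.77 and 8.28.

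Some exons of the ZEB genes overlap other genes, and the strand setting of the counting is not given in the sources used here, so reads in shared bases could not be assigned with certainty. Zeb2os, an antisense transcript at the 5′ end of Zeb2, shares 653 exon bases with it. Gm10125, on the opposite strand from Zeb1, shares 198 exon bases and had between 205 and 465 counts per library, against at least 45621 for Zeb1. Mir5129 shares 5 bases with Zeb2 and had at most 1 count, and Gm27761 shares 4 bases and had 0 counts in each library.

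Zeb2os had 10, 11 and 13 counts at 0 h in replicates 1, 2 and 3, or 0.138, 0.149 and 0.186 CPM. At 1 h it had 16, 36 and 37 counts, or 0.25, 0.394 and 0.514 CPM. At 6 h it had 18, 29 and 26 counts, or 0.244, 0.319 and 0.243 CPM. The 0 h libraries were below every 1 h and 6 h library, which 3.3% of all tested genes showed at 1 h and 12.8% at 6 h in this direction. At 1 h its log2 fold change was 1.27 (SE 0.33, edgeR adjusted p = 0.0536 with the block) and just missed the threshold. It was 1.29 (SE 0.33, edgeR adjusted p = 0.718) without the block. At 6 h against 0 h the value was 0.75 (SE 0.34, edgeR adjusted p = 0.103 with the block). Zeb2 itself had at least 5507 counts per library.

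Snai1 and Snai2, the Snail genes proper, were too low to follow over time. Snai1 had 5, 6 and 6 counts at 0 h in replicates 1, 2 and 3, 5, 5 and 11 counts at 1 h, and 2, 14 and 15 counts at 6 h. Its mean was 0.0787 ± 0.00865, 0.0953 ± 0.0513 and 0.107 ± 0.0696 CPM in order of time (SD, n = 3). At 6 h replicate 1 was at its lowest count and the other two at their highest. Its log2 fold change at 6 h against 0 h was 0.42 (SE 0.54, edgeR adjusted p = 0.587 with the block), with a 95% interval of -0.63 to 1.48, so a change of this size was not detectable at this depth.

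Snai2, which encodes Slug, differed more between replicates than between time points. It had 6, 16 and 5 counts at 0 h in replicates 1, 2 and 3, 10, 28 and 4 counts at 1 h, and 9, 40 and 6 counts at 6 h. All 3 libraries of replicate 2 were above the other 6. In replicate 2 the level was 0.216, 0.307 and 0.44 CPM in order of time, and in the other replicates it was at most 0.156 CPM. The log2 fold change at 6 h against 0 h was 0.64 (SE 0.40, edgeR adjusted p = 0.24 with the block), with a 95% interval of -0.14 to 1.43 and within-replicate ratios of 1.47, 2.03 and 0.782 that did not share a direction.

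The summed level of endothelial cell markers was also highest in replicate 2. The 9 endothelial markers summed to between 12.1 and 21.3 CPM there, against 6.72 to 11.8 CPM in replicate 1 and 4.39 to 5.97 CPM in replicate 3. Of these markers Flt1 had by far the highest means, 3.92 to 7.67 CPM over the time points. Cldn5 and Cdh5 were at or near 0, with means of at most 0.0155 CPM. The 12 fibroblast and mural cell markers summed to between 193 and 245 CPM in replicate 2, 160 and 220 CPM in replicate 1, and 161 and 173 CPM in replicate 3, most of it from Acta2 and Notch3, while Dcn and Lum had at most 0.024 CPM on average. The part of such cells in the level of Snai2 was not tested.

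**Figure D4:**
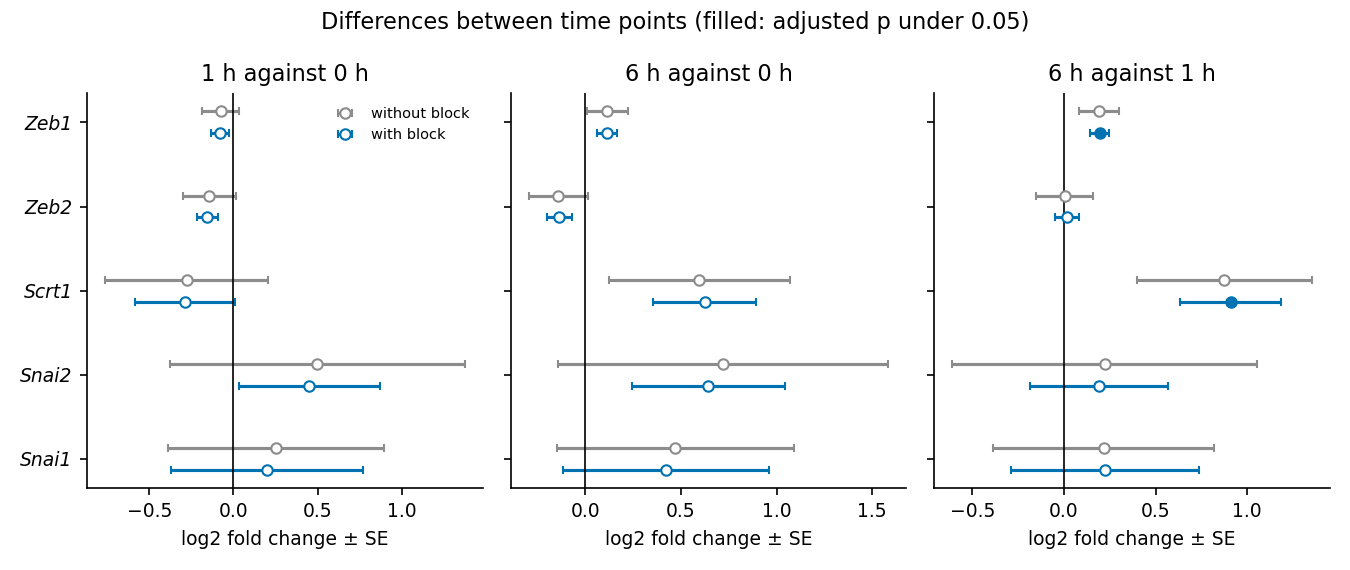
Log2 fold change ± SE of the 5 tested genes in the 3 comparisons by edgeR, without (grey) and with (blue) the replicate block; filled points have an adjusted p under 0.05. The filled points are Scrt1 (0.91) and Zeb1 (0.20) at 6 h against 1 h with the block.

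The genes that moved most like Zeb1 and Zeb2 across the 9 libraries are given as a description, since libraries of one replicate share their level. Among 13606 genes with a mean of at least 1 CPM, the log2 CPM of Zeb1 correlated best with Soga3 (r = 0.988), Zfp2 (0.981) and 4930513N10Rik (0.979). After subtraction of the mean of each replicate number the leading genes were Wrn, a RecQ helicase (0.993), D3Ertd254e (0.991) and Zyg11b (0.99). For Zeb2 they were Alkbh8, a tRNA methyltransferase (0.988), Mga (0.985) and Opa1, a mitochondrial fusion protein (0.98) before, and Mphosph9 (0.989), Alg10b (0.984) and Tmem245 (0.983) after that subtraction.  Scrt1, Snai1 and Snai2 had fewer than 1 CPM and were not compared in this way.

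Genes that act with, on or under these factors were followed as 8 lists with 101 tested genes. At 1 h against 0 h, edgeR called 0 of the 101 without the block, with 8 at an unadjusted p under 0.05 and 1 called by DESeq2. With the block it called 5 higher and 6 lower, where 1.36% and 2.14% of all tested genes were called. For 6 h against 0 h it called 2 without the block and, with it, 13 higher and 38 lower, where 17.4% of all tested genes were called higher and 17.5% lower. Between 1 h and 6 h it called 3 without the block and 13 higher and 32 lower with it, where the shares over all tested genes were 18.0% and 17.5%. The values below are from edgeR with the block unless stated, and for each list the genes with the largest changes are named. All these comparisons share libraries with each other. Among the genes named here, the SE of the called log2 values lay between 0.04 for Prmt5 and 0.37 for Cldn1, and the genes named as called moved the same way in 3 of 3 replicates except where stated.

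The corepressors and enzymes that these factors recruit were all expressed, and they moved both ways. Of 17 genes, 2 were called higher and 7 lower at 6 h against 0 h, with a list median of -0.04 on the log2 scale against 0.00 over all tested genes, and 5 higher and 5 lower at 6 h against 1 h. Rcor2, a CoREST protein enriched in neural progenitors, was at 38.8 CPM at 0 h, 31.8 CPM at 1 h and 50.2 CPM at 6 h, and it fell at 1 h (-0.29, adjusted p = 0.0103) and rose from 1 h to 6 h (0.66, adjusted p = 2.15e-06). The last change was also called without the block (adjusted p = 0.0355). Rcor1, the founding CoREST protein, fell at 1 h (-0.22, adjusted p = 0.0392) and rose from 1 h to 6 h (0.29, adjusted p = 0.00102). Ajuba, a LIM protein that links Snail to its partners, fell at 1 h (-0.30, adjusted p = 0.0132).

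The 5 genes of this list with the largest called changes at 6 h against 0 h were Rcor2, which rose (0.37, adjusted p = 0.000185), and 4 that fell. Hdac1, a histone deacetylase, fell by 0.27 on the log2 scale (adjusted p = 0.000682), the arginine methyltransferase Prmt5 by 0.29 (adjusted p = 0.000313) and Suz12, a subunit of the polycomb complex PRC2, by 0.32 (adjusted p = 0.000833). Wtip, another LIM protein of the Ajuba family, fell by 0.30 (adjusted p = 0.0215). Kdm1a encodes LSD1, the demethylase bound by the SNAG domain, and was at 178 ± 4.67, 180 ± 9.58 and 183 ± 14.6 CPM in order of time (SD, n = 3), with a log2 fold change of 0.04 (SE 0.05, adjusted p = 0.614) at 6 h against 0 h.

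The kinases, ubiquitin ligases and deubiquitinases that act on Snail proteins moved mostly downward. All 18 passed the filter, and with the block 0 were called higher and 11 lower at 6 h against 0 h. Over all tested genes the shares were 17.4% higher and 17.5% lower. The list median was -0.19 against 0.00 over all tested genes. Without the block 0 of the 18 were called in this comparison. Pak1, a kinase that phosphorylates Snail, fell by 0.52 on the log2 scale (adjusted p = 0.000266), and the deubiquitinase Usp37 fell by 0.36 (adjusted p = 0.000717). Mdm2, a ubiquitin ligase for p53 and for Snail proteins, fell by 0.32 (adjusted p = 0.000209), Cops2, a subunit of the COP9 signalosome, by 0.31 (adjusted p = 0.000201) and the F-box protein Fbxo45 by 0.28 (adjusted p = 0.000673). Between 1 h and 6 h the counts were 1 higher, the deubiquitinase Usp27x (0.27, adjusted p = 0.0214), and 6 lower. Mdm2 was called at 6 h against 1 h without the block too (adjusted p = 0.0347).

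The TGF-beta pathway, which induces Snail and ZEB genes in epithelial cells, had 1 of 13 genes called higher and 4 lower at 6 h against 0 h, with a list median of -0.10. Tgfbr1, the type I receptor, was at 73.1 CPM in undifferentiated cells and fell by 0.48 on the log2 scale (adjusted p = 0.000176). Tgfbr2, the type II receptor, fell by 0.27 (adjusted p = 0.0204), the signal transducer Smad3 by 0.22 (adjusted p = 0.00467) and the SMAD inhibitor Skil by 0.22 (adjusted p = 0.0229). The ligand Tgfb2 rose (0.23, adjusted p = 0.0179). Between 1 h and 6 h Tgfbr1 was the 1 gene called, lower in 2 of 3 replicates (-0.23, adjusted p = 0.0223).

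The epithelial genes that Snail and ZEB factors repress were mostly too low to test. Of 25 genes, 14 did not pass the filter, among them Cdh1, which encodes E-cadherin and had means of 0.0119 to 0.0251 CPM, Epcam at 0.0507 to 0.115 CPM and Ocln at no more than 0.0184 CPM. Of the 11 that passed, 3 were called higher and 1 lower at 6 h against 0 h, and 4 higher and 2 lower at 6 h against 1 h. Tjp3, a tight junction scaffold, was at 1.29, 1.22 and 2.55 CPM in order of time and rose against both earlier times (0.98, adjusted p = 0.000554, and 1.06, adjusted p = 0.00033). The polarity genes Llgl2, Patj and Crb3 were higher at 6 h than at 1 h (1.00, 0.50 and 0.92, with adjusted p of 0.0226, 0.00242 and 0.0134). Cldn1, a claudin, was lower (-1.32, adjusted p = 0.0135), and Muc1 was lower than at 0 h (-0.51, adjusted p = 0.00216). Llgl2, Crb3 and Cldn1 were low, at 0.243, 0.304 and 0.457 CPM at 1 h and 0.514, 0.575 and 0.18 CPM at 6 h. Without the block 0 of the 11 were called in either comparison.

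Windows around the E-box of some of these genes are shown because it is the motif that Snail, Scratch and ZEB proteins bind. The windows are on GRCm38.p6, from RefSeq promoter sequences of 300 bases that span the gene start, and the windows shown lie before it. They are written 5′ to 3′ on the strand of the gene with the motif in capitals. CACCTG and CAGGTG are reverse complements, so a search for both covers both strands.
Snai1: agcccaggcgCACCTGctccggtctc
Crb3: cctgtgcttaCACCTGctcatttccg
Tjp3: caaaccctccCACCTGcaggccggcc
Patj: gagagcggccCAGGTGaggaggcggc
Muc1: tgttacctgtCACCTGctctgactgt
They lie at chr2:167538059-167538084 (Snai1, plus strand), chr17:57062073-57062098 (Crb3, plus strand), chr10:81291269-81291294 (Tjp3, minus strand), chr4:98395797-98395822 (Patj, plus strand) and chr3:89228976-89229001 (Muc1, plus strand). One or both forms of the motif were found for 6098 of the 27025 genes that had a promoter sequence (22.6%). A gene was counted once if any of its promoter sequences held the motif. The motif was found for 14 of the 17 epithelial genes with a promoter sequence (82.4%), and for Snai1 but not for Zeb2. The match describes these letters only, and the epithelial list was drawn up from genes known for repression by these factors.

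With the block, the mesenchymal genes, which rise in EMT, had more genes called lower than higher at 6 h but not at 1 h. Of 18 tested genes of 20, 2 were called higher and 0 lower at 1 h against 0 h (list median 0.07). At 6 h against 0 h 2 were called higher and 8 lower (list median -0.10 against 0.00), beside 17.4% and 17.5% of all tested genes. At 6 h against 1 h 2 were called higher and 9 lower (list median -0.24), beside 18.0% and 17.5%. Without the block 0 of the 18 were called in each comparison. Acta2, smooth muscle actin, was at 77.2, 90.1 and 36.6 CPM in order of time. It rose at 1 h (0.24, adjusted p = 0.0271) and had fallen at 6 h by 1.06 on the log2 scale (adjusted p = 4.13e-08 against 0 h). The matrix glycoprotein Tnc went from 2490 to 1600 CPM (-0.64, adjusted p = 1.21e-05), and Tagln, an actin-binding protein, fell by 0.88 (adjusted p = 8.4e-05). Vim, the intermediate filament vimentin, was lower at 6 h than at 1 h (-0.35, adjusted p = 0.000285). The fibronectin receptor subunit Itga5 went against this direction and rose at 1 h (0.43, adjusted p = 0.000654) and at 6 h (0.60, adjusted p = 3.69e-06).

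Of the other EMT transcription factors, 11 of 14 were tested, and Twist1, Twist2 and Foxc2 were too low. By 6 h 2 were called higher and 3 lower than at 0 h. Sox4 was at 86.7 ± 2.4, 129 ± 14.2 and 133 ± 7.36 CPM in order of time (SD, n = 3), and it rose by 0.57 on the log2 scale at 1 h (adjusted p = 0.000408) and 0.62 at 6 h (adjusted p = 1.78e-05). The 6 h change of Sox4 was also called without the block (adjusted p = 0.0191). Sox9, a factor of neural stem cells and glia, rose at 1 h (0.43, adjusted p = 0.00118) and 6 h (0.35, adjusted p = 0.000454). Hmga2, a chromatin protein of stem cells, went from 56.2 to 24.5 CPM at 6 h (-1.29, adjusted p = 1.3e-06), and Foxc1 and Prrx1 fell by 0.38 and 0.32 (adjusted p of 0.0157 and 0.00146). Tcf12, an E protein, was at 604, 671 and 564 CPM and was lower at 6 h than at 1 h (-0.25, adjusted p = 0.00395).

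The p53 and survival list holds genes through which Snail and Scratch factors are known to protect cells from death. Of 11 genes, 2 were called higher and 5 lower at 6 h against 0 h (list median -0.01), and 0 higher and 6 lower at 6 h against 1 h (list median -0.18). Mcl1, an anti-apoptotic BCL2 protein, was at 258, 252 and 183 CPM in order of time and fell by 0.49 at 6 h against 0 h (adjusted p = 8.1e-06), also without the block (adjusted p = 0.0249). Bcl2, of the same function, fell by 0.61 (adjusted p = 1.44e-05). Pmaip1, the pro-apoptotic protein Noxa, fell at 1 h (-0.51, adjusted p = 0.000439) and stayed lower at 6 h (-0.58, adjusted p = 1.42e-05). The cell cycle inhibitor Cdkn1a rose at 1 h (0.30, adjusted p = 0.00249), and Cdkn1c, a related inhibitor, rose at 6 h (0.79, adjusted p = 0.0126).

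The last list holds genes that ZEB factors repress in neural cells. Of 6 genes, 3 were tested and 1 was called. Pard6b, a polarity protein, was at 0.772, 0.877 and 1.36 CPM in order of time and rose at 6 h against 0 h (0.82, adjusted p = 0.00453) and against 1 h (0.64, adjusted p = 0.0159). Ntf3 was at 0 in each group, and Bmp4 and Cdh1 were too low to test.

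**Figure D5:**
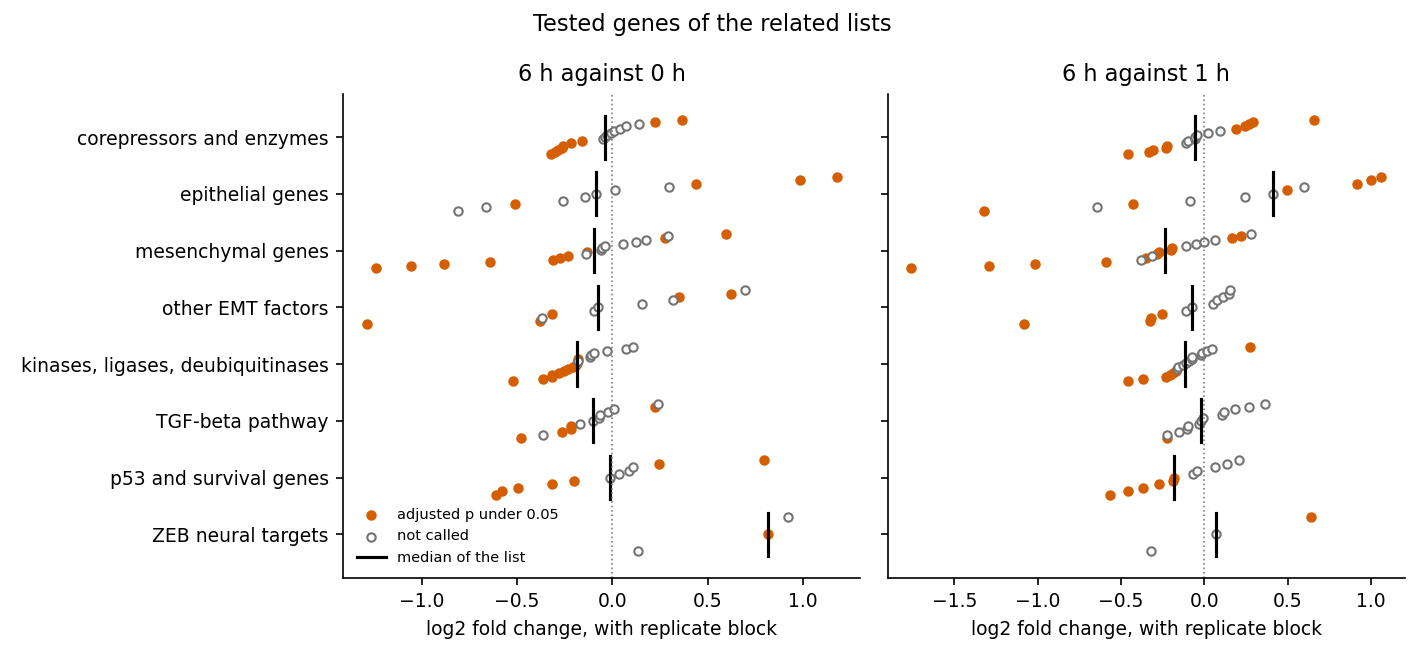
Log2 fold change with the replicate block of the tested genes of the 8 lists at 6 h against 0 h (left) and at 6 h against 1 h (right); orange points have an adjusted p under 0.05 and black bars are list medians. Of the 18 kinases, ligases and deubiquitinases 0 are called higher and 11 lower on the left, and the mesenchymal list has 2 higher and 8 lower. In this comparison 17.4% of all tested genes were called higher and 17.5% lower. Without the block 0 genes of these lists were called in it.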

How the data were processed

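The authors deposited raw counts of reads per Ensembl gene. Per their methods and processing notes, they aligned paired-end reads from mRNA to mm10 (GRCm38) and counted them with STAR 2.5.3a, checked quality with FastQC and used DESeq2 1.22.1 with a Wald test. The labels call the libraries stranded, and the strand setting of the counting is not given in the sources used here. Splicing was not analysed here.

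The test was the quasi-likelihood test of edgeR 4.0.16 under R 4.3.3 (filterByExpr with a minimum count of 10 and a minimum total of 15, TMM, glmQLFit and glmQLFTest on all 9 libraries, Benjamini-Hochberg over 18858 tested genes, threshold 0.05) and, as an alternative, DESeq2 1.42.0. Figures were drawn with matplotlib 3.10.9 in Python 3.11.15. The fits were tested on simulated counts in which each replicate had its own level. Without the block, 8.96% of 1.5-fold and 41.4% of 2-fold changes were recovered at 1 h, and 12.1% and 51.5% at 6 h. With the block these shares were 70.1% and 78.6% at 1 h, and 63.6% and 86.4% at 6 h. The fit with the block also called 15 unchanged genes at 1 h and 13 at 6 h. RPKM used GENCODE M21 exons, which held 48144 of the 48526 identifiers. Libraries differed by more than sampling noise, the lowest ratio of chi-square to degrees of freedom being 13.6. As an alternative, the dependence on GC content and length was removed with splines of 4 degrees of freedom. RefSeq promoters (GRCm38.p6) were searched for the E-box without chromosome 18. The depth, 65871454 to 105592597 counts per library, limits Snai1, Snai2, Snai3 and Scrt1, which had 0 to 83 counts.

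Replicate numbers come from the labels, and libraries with the same number also share a letter (B, C or D) in their titles. After subtraction of the time point means, libraries with the same number correlated at 0.733 to 0.8 (9 pairs) and others at -0.462 to -0.314 (18 pairs). That subtraction makes the deviations within a time point cancel out, so the negative values are no separate evidence. Libraries with the same number deviated together and were treated as paired in the fit with the block. The biological coefficient of variation was 0.277 without and 0.0627 with the block.

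The genes, the lists and the tests were chosen with earlier results of these data known. The named genes are the 6 members, Scrt2, genes whose exons overlap a member, up to 5 genes per list and comparison with the largest change among those called with or without the block, and the 3 genes most correlated with each member of at least 1 CPM. One gene that this rule names is not reported here. Kdm1a, Bbc3, Cdh1, Epcam, Ocln, the genes of the lists that were too low, and the cell type markers were named after their values were seen.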

Additional observations from a re-analysis of the deposited data

How the results depend on the processing

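The replicate number as a block (the pairing) changed the counts of called genes for the related lists in each comparison and for the members at 6 h against 1 h. Among the 5 tested Snail, Scratch and ZEB genes, the count at 6 h against 1 h went from 0 to 2 with the block in edgeR, 2 in DESeq2 with the block, 2 with the block and the removal of GC content and length effects, and 2 with the block in the 6 compared libraries alone, a fit chosen after seeing the data. The count at 6 h against 0 h was 0 with and without the block alone, 1 with the block and that removal together (Zeb1) and 2 with the block in the 6 libraries (Zeb1 and Zeb2). Leaving out each library, with or without the block, gave 0 to 2 genes in both comparisons.

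Among the 101 list genes, the counts at 1 h against 0 h, 6 h against 0 h and 6 h against 1 h were 0, 2 and 3 without the block, 11, 51 and 45 with it, 1, 11 and 11 in DESeq2, 15, 50 and 46 in DESeq2 with the block, 13, 60 and 53 with the block and the removal of GC content and length effects, and 12, 59 and 40 with the block in the 6 libraries. Without the block, an adjusted p under 0.01 left 0 at 6 h against both earlier times. For 6 h against 1 h the count without the block was 1 without a filter on low counts, 5 when genes needed 1 CPM on average, and 0 in the 6 libraries. Leaving out each library, with or without the block, gave 0 to 17, 0 to 61 and 0 to 48 genes in the 3 comparisons. With the block, the 11 genes at 1 h became 5 without the 0 h library of replicate 1 or 2, 7 without the 1 h library of replicate 1 or the 0 h library of replicate 3, and 17 without the 6 h library of replicate 3.

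Directions that changed belonged to values that were not called. The log2 fold change of Zeb2 at 6 h against 1 h was -0.0053 in DESeq2 and with its scaling in edgeR, and -0.0028 in the 6 libraries. Leaving out each library, with or without the block, moved it from -0.15 to 0.14. At 1 h against 0 h the same gave -0.275 to 0.0118 for Zeb2, -0.153 to 0.0204 for Zeb1, -0.600 to 0.0915 for Scrt1, -0.26 to 0.72 for Snai1 and -0.25 to 1.18 for Snai2. Snai1 moved from -0.0845 to 0.887 at 6 h against 0 h and from -0.31 to 0.73 at 6 h against 1 h, and Snai2 from -0.51 to 1.40 and from -1.01 to 0.97. The cause was not tested. The counts of Snai1 (2 to 15), Snai2 (4 to 40) and Scrt1 (10 to 83) limit what could be detected for them.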
